A study of Mus musculus with 20 samples.

Results

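The comparison described here sets mice fed a tryptophan-deficient diet (TDD) with their microbiota left in place directly against mice fed the control diet (CD) and treated with antibiotics (ABX). The members were chosen by GEO's labels alone, as the 5 mice labelled with the deficient diet and no antibiotics and the 5 mice labelled with the control diet plus antibiotics, 10 of the 20 mice of the series. In the series, female C57BL/6 mice, 7 weeks old, received CD or TDD over 3 weeks, either as specific pathogen-free (SPF) animals or with ABX, which held ampicillin, vancomycin, gentamycin, metronidazole and neomycin. RNA was sequenced from a short piece of terminal ileum, the last part of the small intestine, cut near the cecum. The other 10 mice, 5 SPF mice on CD and 5 ABX-treated mice on TDD (TDD+ABX), stand beside the comparison as a reference. CD and TDD were both amino acid diets, TDD without added tryptophan (Trp), so the comparison changes diet and microbiota at once. The drinking water that carried the antibiotics was sweetened with sucrose, and the effects of antibiotics and of sucrose cannot be told apart here. The question the comparison addresses is which ileal genes separate a mouse without dietary Trp from a mouse with a depleted microbiota.

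Trp is an essential amino acid that host cells convert to kynurenines and serotonin and that gut bacteria convert to indoles, several of which are ligands of the aryl hydrocarbon receptor (AhR). The ileal epithelium reads its microbiota through pattern recognition and cytokines and answers with antimicrobial lectins such as Reg3b and Reg3g, while B cells in Peyer's patches and lymphoid follicles switch to IgA. The ileum also takes up bile acids through the transporter Slc10a2 and the carrier Fabp6, and bacteria change the bile acids that reach it.

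Each of the 10 mice gave between 37664356 and 58662617 estimated counts, and levels are given as CPM, counts relative to the scaled library size of each mouse. The label of small intestine was matched by high levels of the brush border disaccharidase gene Sis (7270.2 to 8549 CPM in TDD) and of the Paneth cell lysozyme gene Lyz1 (4331 to 5317 CPM in TDD), but the ileal marker Fabp6 was low, at 0.238 to 3.91 CPM in the TDD mice, 0.319 to 2.42 CPM in the CD mice and 2.65 to 144 CPM in the CD+ABX mice. One TDD mouse stood apart in its B cell marker level. Summed over 24 B cell markers, the level was 60.3 CPM in TDD mouse 1 and 306 to 589 CPM in TDD mice 2 to 5, against 61.0 to 77.0 CPM in the CD+ABX mice. The same sum was 78.1, 79.9 and 85.9 CPM in CD mice 4, 1 and 5 but 283 and 380 CPM in CD mice 2 and 3, and it was 384 CPM in TDD+ABX mouse 5. No marker of the list was at 0 in any of the 20 mice. In a piece of whole tissue, fewer cells of a type and less RNA per cell cannot be told apart.

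The deficient diet and microbiota depletion were told apart by 668 genes of 16306 tested (4.10%), which passed an adjusted p under 0.05 and a fold of at least 2 in the quasi-likelihood test of edgeR, adjusted by the method of Benjamini and Hochberg. Of these, 509 were higher in TDD (3.12% of genes tested) and 159 were higher in CD+ABX (0.975%). The levels of the 5 TDD mice and the 5 CD+ABX mice did not overlap for 249 of the 509 and for 129 of the 159. Over all genes tested, 8.29% did not overlap with TDD higher and 8.10% with CD+ABX higher. The called genes were chosen by a test on these same mice, so their larger share without overlap follows from that choice. Median log2 fold change, always given as TDD minus CD+ABX, was 0.02 over all genes tested. Without TDD mouse 1 the test called 573 genes higher in TDD and 156 higher in CD+ABX, of which 483 and 144 were among the genes called with all mice. With the log2 of the summed B cell marker level as a covariate across the 20 mice it called 185 and 154 genes, of which 147 and 116 were among those called without it. The genes higher in CD+ABX kept most of their calls under this covariate and the genes higher in TDD did not. The covariate itself nearly follows the groups, at 61.0 to 77.0 CPM in CD+ABX and 306 to 589 CPM in TDD mice 2 to 5. It can therefore take up group difference of any source, and a lost call does not name that source. Whether the B cell marker level is itself an outcome of the treatments was not tested.

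**Figure D1:**
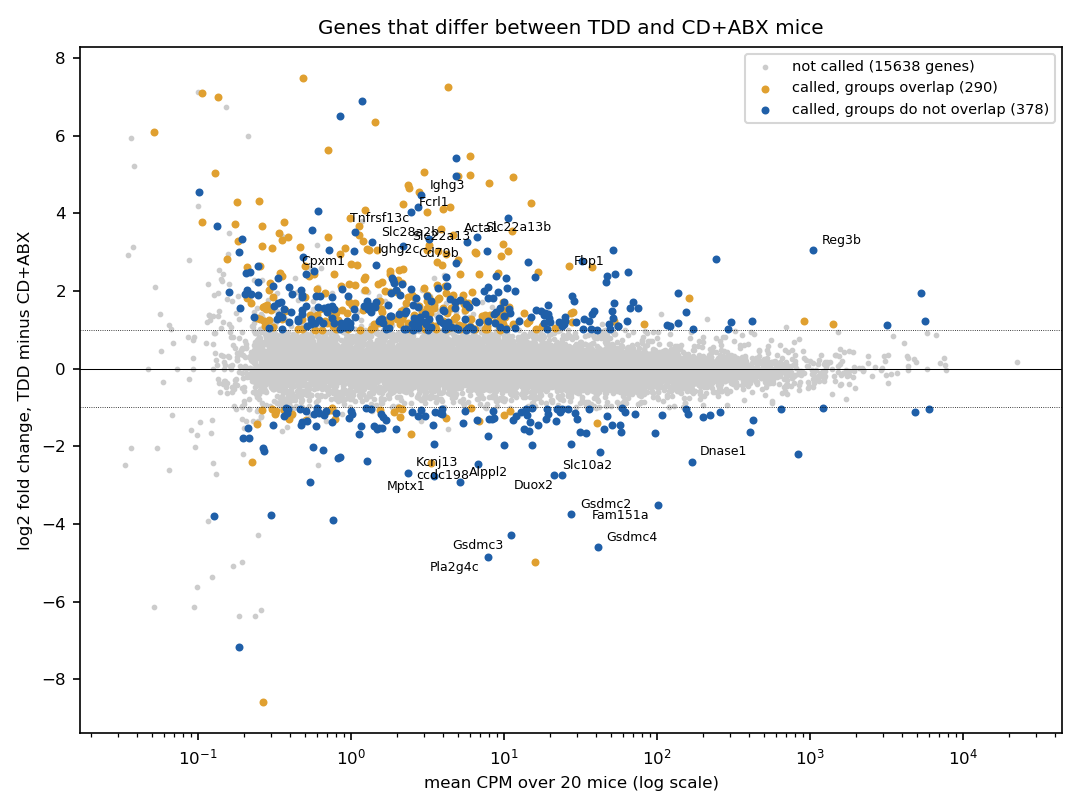
Log2 fold change, TDD minus CD+ABX (vertical axis), against mean CPM over 20 mice (horizontal axis, log scale) for each of the 16306 genes tested. Blue points are the 378 called genes whose 5 TDD and 5 CD+ABX mice do not overlap, orange points the 290 called genes whose groups overlap, grey points the genes not called; names mark the 12 highest and 12 lowest ranked genes, dotted lines a fold of 2, and most called points lie above 0.

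Among the largest differences toward CD+ABX were those of the gasdermin C cluster, a row of neighbouring genes on chromosome 15 whose proteins belong to a family of membrane pore formers. Gsdmc4 (chr15:63891264-63912297, GRCm38) stood at 4.79, 4.91, 1.66, 3.303 and 2.397 CPM in the TDD mice and at 30.96, 40.05, 117, 148 and 71.7 CPM in the CD+ABX mice (log2 fold change -4.59 ± 0.58 (SE), adjusted p = 4.3e-05). Every TDD mouse was below every CD+ABX mouse. Gsdmc3 (chr15:63857724-63878558) ran at 1.76, 1.51, 0.559, 1.46 and 0.663 CPM in TDD and 7.41, 10.05, 31.3, 40.9 and 23.5 CPM in CD+ABX (log2 fold change -4.27 ± 0.63 (SE), adjusted p = 0.00015). Gsdmc2 (chr15:63824346-63845177) ran at 4.72, 6.28, 1.97, 5.04 and 1.94 CPM in TDD and 21.9, 25.97, 77.2, 86.97 and 51.4 CPM in CD+ABX (log2 fold change -3.74 ± 0.55 (SE), adjusted p = 0.00014). Among the CD+ABX mice, mice 1 and 2 held the lowest levels of all of these genes and mice 3 and 4 the highest. The fourth gene of the cluster, Gsdmc, was near the floor, at 0 to 0.0826 CPM in TDD and 0.226 to 1.07 CPM in CD+ABX, again without overlap. These paralogs are close copies, so reads may be split among them with some error. Of the 16 tested members of the gasdermin C and apolipoprotein L families, 7 were higher in CD+ABX and none in TDD, with a median of -0.84. The share of all genes tested that was called higher in CD+ABX was 0.975%. The 3 called beside the gasdermins were Apol10b, Apol11b and Apol10c-ps, of which Apol11b had 1.03, 1.1002, 0.891, 0.495 and 0.323 CPM in TDD and 1.92, 2.37, 3.03, 2.04 and 1.81 CPM in CD+ABX (log2 fold change -1.55 ± 0.31 (SE), adjusted p = 0.0015).

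Pla2g4c, a cytosolic phospholipase A2 gene (chr7:13324655-13360672), showed the largest difference toward CD+ABX of the genes with no overlap and a mean of at least 1 CPM. It was flat in TDD, at 0.678, 0.596, 0.766, 0.743 and 0.595 CPM, and ranged widely in CD+ABX, at 2.96, 5.25, 27.1, 42.2 and 19.9 CPM (log2 fold change -4.85 ± 0.87 (SE), adjusted p = 0.00066), with mice 1 and 2 again lowest. Duox2, the epithelial oxidase that makes hydrogen peroxide at the mucosal surface, lay at 8.13, 7.197, 4.52, 14.1 and 7.09 CPM in TDD and 15.1, 17.1, 48.7, 134 and 56.7 CPM in CD+ABX (log2 fold change -2.74 ± 0.52 (SE), adjusted p = 0.0011). Its maturation factor gene Duoxa2 was also higher in CD+ABX (log2 fold change -2.45 ± 0.53 (SE)), but its groups overlapped, with 2.15 CPM in TDD mouse 4 and 1.61 CPM in CD+ABX mouse 1. Mptx1, a mucosal pentraxin made by Paneth cells, lay at 0.502, 1.33, 1.098, 0.716 and 0.986 CPM in TDD and 6.95, 3.88, 5.14, 9.46 and 6.09 CPM in CD+ABX (log2 fold change -2.76 ± 0.30 (SE), adjusted p = 1.2e-05), and it was the only one of 20 Paneth cell markers called. Without TDD mouse 1 that list had 2 further calls, higher in TDD, and without TDD mouse 5, CD+ABX mouse 1 or CD+ABX mouse 4 it had 1. With all mice, 4.10% of all genes tested were called.

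The remaining genes among the 12 lowest were enzymes, transporters and genes of less known role. Dnase1, the secreted nuclease, lay at 32.3, 53.5, 43.95, 75.4 and 35.3 CPM in TDD and 233, 224, 293, 250.3 and 263 CPM in CD+ABX (log2 fold change -2.39 ± 0.26 (SE), adjusted p = 1.2e-05). Alppl2, an alkaline phosphatase gene, lay at 0.904, 1.15, 1.28, 1.16 and 1.27 CPM in TDD and 8.16, 8.44, 9.93, 10.6 and 7.07 CPM in CD+ABX (log2 fold change -2.93 ± 0.21 (SE), adjusted p = 4.2e-07). Fam151a lay at 16.4, 16.7, 26.8, 31.7 and 3.603 CPM in TDD, with mouse 5 far below the others, and at 147, 211, 176, 260.4 and 283 CPM in CD+ABX (log2 fold change -3.51 ± 0.47 (SE), adjusted p = 6.4e-05). The inward rectifier potassium channel gene Kcnj13 had 0.323 to 1.07 CPM in TDD and 2.96 to 5.22 CPM in CD+ABX (log2 fold change -2.68 ± 0.34 (SE)), and ccdc198 had 2.09 to 2.81 CPM and 9.44 to 19.4 CPM (log2 fold change -2.47 ± 0.22 (SE)). All 5 genes were free of overlap between the groups, and each kept its call in every one of the 31 alternative fits.

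Bile acid genes that passed both limits were all higher in CD+ABX. Of 15 tested bile acid and FXR genes, 5 were higher in CD+ABX and none in TDD, with a list median of -0.27. Over all genes tested, 0.975% were called higher in CD+ABX and 3.12% higher in TDD. On adjusted p alone the list was split, with 6 genes higher in CD+ABX and 4 higher in TDD. No overlap was seen for 3 with CD+ABX higher and 2 with TDD higher, where 8.10% and 8.29% of all genes had none. Slc10a2, which carries bile acids from the lumen into ileal cells (chr8:5083219-5105351), lay at 6.53, 3.69, 8.803, 5.95 and 4.49 CPM in TDD and 24.3, 33.1, 16.6, 37.3 and 86.1 CPM in CD+ABX (log2 fold change -2.75 ± 0.43 (SE), adjusted p = 0.00024). Every CD+ABX mouse was above every TDD mouse, and both groups were above the CD mean, since the CD mice had only 1.46, 3.89, 1.38, 2.62 and 2.44 CPM. Fabp6, the cytosolic bile acid carrier, overlapped between the groups, at 2.03, 0.298, 0.518, 3.91 and 0.238 CPM in TDD and 2.65, 14.6, 5.47, 144 and 40.8 CPM in CD+ABX (log2 fold change -4.97 ± 1.06 (SE), adjusted p = 0.0023). CD+ABX mouse 4 held most of the Fabp6 of its group, and CD+ABX mouse 1 lay below TDD mouse 4. Without CD+ABX mouse 4 its log2 fold change was -3.58, and it was still called. Fgf15, the ileal hormone that signals to the liver to lower bile acid synthesis, had 11.9, 8.66, 13.5, 4.32 and 6.901 CPM in TDD and 24.6, 32.2, 59.9, 65.4 and 17.2 CPM in CD+ABX (log2 fold change -2.14 ± 0.59 (SE), adjusted p = 0.013), with no overlap. Nr0b2, a nuclear receptor target of bile acid signalling, overlapped (0.226 to 1.44 CPM in TDD, 1.08 to 3.97 CPM in CD+ABX, log2 fold change -1.70 ± 0.50 (SE), adjusted p = 0.018), and its call was lost without CD+ABX mouse 4 (log2 fold change -1.42). Ces2a, a carboxylesterase gene fixed on this list, made the fifth call (log2 fold change -1.16 ± 0.16 (SE)). With limma-voom Fabp6 was not called. CD+ABX mouse 4, the highest for Fabp6, was the lowest of its group for Sis, Slc2a2 and Apoa4, given below. The methods name the same place of cutting for all mice. The part that the place of each piece along the ileum had in these bile acid, sugar and fat genes was not tested.

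Interferon-stimulated genes called between the groups were all higher in CD+ABX. Of 39 tested, 13 were higher in CD+ABX and none in TDD, and 18 did not overlap with CD+ABX higher. Over all genes tested, 0.975% were called and 8.10% did not overlap with CD+ABX higher. The list median was -0.86 against 0.02 for all genes. Oas2, which makes the messenger that activates RNase L (chr5:120730333-120749853), lay at 4.14, 3.99, 2.32, 3.77 and 8.07 CPM in TDD and 10.6, 16.9, 17.2, 26.9 and 16.3 CPM in CD+ABX (log2 fold change -1.97 ± 0.43 (SE), adjusted p = 0.0029). Its relative Oas1g lay at 13.2, 10.3, 8.55, 14.8 and 23.1 CPM in TDD and 28.1, 45.7, 39.9, 57.2 and 49.9 CPM in CD+ABX (log2 fold change -1.66 ± 0.35 (SE), adjusted p = 0.0021). Ifi44 lay at 1.71, 1.81, 1.12, 1.68 and 3.54 CPM in TDD and 4.102, 6.76, 6.798, 10.3 and 4.88 CPM in CD+ABX (log2 fold change -1.72 ± 0.46 (SE), adjusted p = 0.01). TDD mouse 5 was the highest of its group for all of these genes, still below every CD+ABX mouse, and CD+ABX mouse 1 was the lowest of its group. Oas1e was called at levels near the floor (0 to 0.119 CPM in TDD, 0.432 to 2.55 CPM in CD+ABX), and reads may be split among the Oas1 copies. Isg15, a ubiquitin-like modifier, and Rsad2, an antiviral enzyme known as viperin, had log2 fold changes of -1.35 ± 0.36 (SE) and -1.37 ± 0.36 (SE). Without CD+ABX mouse 4 the list had 10 calls, and with the B cell marker level as a covariate it had 4, all higher in CD+ABX. In that fit the log2 fold changes were -1.73 for Oas2, -1.58 for Oas1g, which kept its call, and -1.43 for Ifi44. The interferon-gamma GTPase and MHC class II list had 3 calls of 26, all higher in TDD, where 3.12% of all genes tested were. These were the MHC class II genes H2-Ob, H2-DMb2 and H2-Oa, of which H2-DMb2 is also on the B cell list. No interferon-gamma GTPase was called. With the B cell marker level as a covariate, H2-Ob, H2-DMb2 and H2-Oa had log2 fold changes of -0.095, -0.19 and 0.32, and none kept its call. TDD mouse 1 had 1.13 CPM of H2-Ob, below the CD+ABX range of 1.34 to 1.94 CPM, and the other TDD mice had 15.6, 11.8, 20.3 and 16.9 CPM.

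Promoters of interferon-stimulated genes are shown because the called members differed in 1 direction and the family is known for an element, the core of the interferon-stimulated response element. RefSeq promoters on GRCm38.p6, reaching 250 bases before to 50 bases after the start site, were found for 27 of the 39 genes and 8 of the 13 called. The motif, GAAA followed by any 2 bases and a second GAAA, searched on both strands, lay in 6 of the 8 called genes (75%), in 15 of the 27 list genes (55.6%) and in 4.04% of the 12115 tested genes that had a promoter. Matches may overlap each other, and capitals mark them in the sequences below, which are all written 5′ to 3′ along the gene's own strand.
Oas1g, chr5:120887564-120887863, minus strand: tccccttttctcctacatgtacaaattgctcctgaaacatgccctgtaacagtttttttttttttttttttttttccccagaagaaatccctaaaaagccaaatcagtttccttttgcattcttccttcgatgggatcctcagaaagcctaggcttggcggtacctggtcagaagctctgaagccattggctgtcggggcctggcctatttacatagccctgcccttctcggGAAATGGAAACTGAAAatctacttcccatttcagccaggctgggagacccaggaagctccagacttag
Isg15, chr4:156200769-156201068, minus strand: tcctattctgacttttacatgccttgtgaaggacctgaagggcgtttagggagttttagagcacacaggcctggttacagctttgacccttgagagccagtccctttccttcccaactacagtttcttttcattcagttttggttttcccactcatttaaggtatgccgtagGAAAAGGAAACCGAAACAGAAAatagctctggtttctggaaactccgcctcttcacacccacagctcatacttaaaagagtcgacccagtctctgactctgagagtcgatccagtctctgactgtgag
Rsad2, chr12:26456403-26456702, minus strand: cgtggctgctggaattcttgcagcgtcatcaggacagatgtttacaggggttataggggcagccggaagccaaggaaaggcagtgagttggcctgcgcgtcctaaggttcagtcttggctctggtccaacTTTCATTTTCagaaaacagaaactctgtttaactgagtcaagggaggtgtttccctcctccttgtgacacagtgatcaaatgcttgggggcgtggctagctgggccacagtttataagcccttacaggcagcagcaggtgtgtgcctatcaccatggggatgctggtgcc
In Isg15 and Oas1g the matches run into each other as 1 block, and in Rsad2 the match lies on the opposite strand. A match describes the letters and does not show that a factor bound there.

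Tuft cell genes that were called were all higher in CD+ABX. Tuft cells are chemosensory epithelial cells that start type 2 immune responses. Of 19 tested genes of this list, 8 were higher in CD+ABX and none in TDD, and the median was -0.94. With CD+ABX higher, 10 did not overlap. Over all genes tested, 0.975% were called and 8.10% did not overlap in that direction. The level summed over the list overlapped, at 772 to 1246 CPM in TDD and 541 to 2383 CPM in CD+ABX, where CD+ABX mouse 1 lay below every TDD mouse. Trpm5, the cation channel of taste-like signalling, lay at 10.2, 13.6, 8.72, 12.2 and 13.1 CPM in TDD and 20.2, 19.9, 39.5, 31.05 and 31.6 CPM in CD+ABX (log2 fold change -1.30 ± 0.18 (SE), adjusted p = 0.00011). Rgs13 lay at 4.37, 5.84, 4.64, 5.17 and 5.69 CPM in TDD and 9.196, 8.297, 18.2, 13.7 and 13.4 CPM in CD+ABX (log2 fold change -1.29 ± 0.20 (SE), adjusted p = 0.00026). CD+ABX mice 1 and 2 came nearest to the TDD mice for both genes, and no CD+ABX mouse overlapped them. Alox5, which starts leukotriene synthesis, had a log2 fold change of -1.45 ± 0.23 (SE), and Siglecf, expressed by tuft cells and eosinophils, one of -1.40 ± 0.25 (SE). Pou2f3, the transcription factor that defines the lineage, had 1.97 to 2.84 CPM in TDD and 3.48 to 7.49 CPM in CD+ABX (log2 fold change -1.11 ± 0.17 (SE), adjusted p = 0.0002). Hmx3, Avil and Sh2d6 made up the remaining calls. The list had 5 calls without CD+ABX mouse 3 and 11 with the B cell marker level as a covariate. Il1rl1, the receptor of the alarmin IL-33 and fixed on the regulatory T cell list, was also higher in CD+ABX, with 1.96, 5.501, 2.17, 3.22 and 7.95 CPM in TDD and 9.26, 15.8, 9.48, 17.99 and 29.7 CPM in CD+ABX (log2 fold change -1.97 ± 0.43 (SE), adjusted p = 0.0029).

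**Figure D2:**
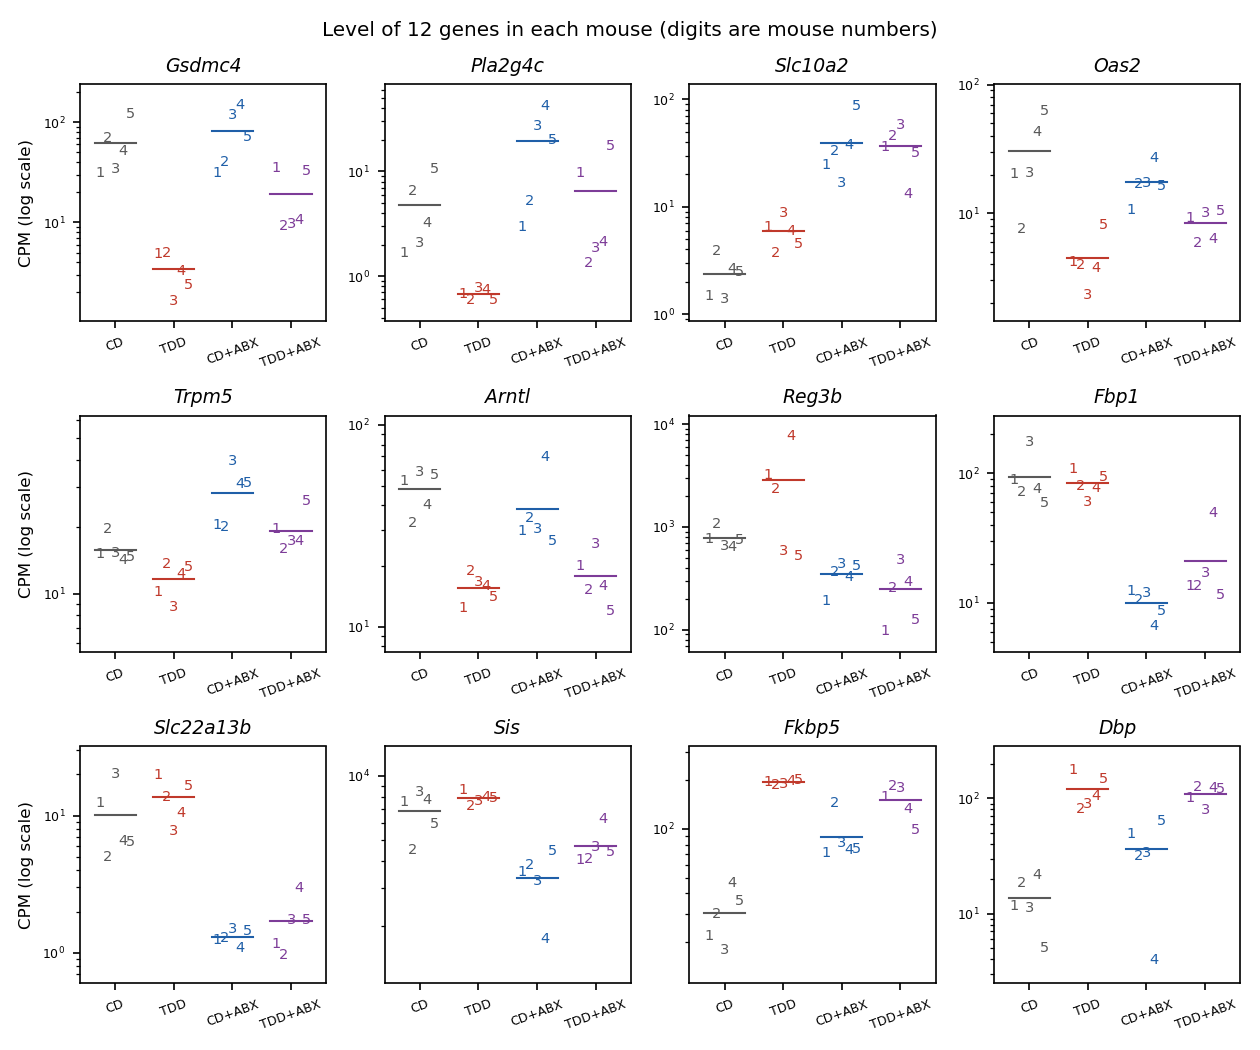
Level in CPM (vertical axes, log scale) of 12 genes in every mouse of the CD, TDD, CD+ABX and TDD+ABX groups, with each mouse drawn as its number and a line at the mean of 5 mice. Gsdmc4, Pla2g4c, Slc10a2, Oas2, Trpm5 and Arntl are lower in all TDD than in all CD+ABX mice and the other 6 genes are higher; CD+ABX mouse 4 lies apart for Arntl and Dbp.

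The antimicrobial lectins Reg3b and Reg3g were higher in TDD, at high levels. Reg3b (chr6:78370657-78373466) lay at 3197, 2353, 577, 7583 and 519 CPM in TDD and 191, 360.3, 438, 322 and 413 CPM in CD+ABX (log2 fold change 3.05 ± 0.60 (SE), adjusted p = 0.0013). Reg3g (chr6:78466269-78468872) lay at 524, 407, 118, 1876 and 113 CPM in TDD and 47.2, 82.8, 98.8, 104 and 93.1 CPM in CD+ABX (log2 fold change 2.83 ± 0.58 (SE), adjusted p = 0.0017). The groups did not overlap for either gene, but TDD mice 3 and 5 were just above the highest CD+ABX mouse, while mice 1, 2 and 4 were several times higher. Without TDD mouse 4 the log2 fold changes were 2.27 for Reg3b and 1.77 for Reg3g, and both were still called. TDD mouse 1, which was low in B cell markers, was the second highest for both genes. Reads may be split between these paralogs. Pla2g2a, a secreted phospholipase that kills bacteria, was also higher in TDD in every mouse, at 46.98, 40.1, 30.8, 36.4 and 42.1 CPM against 14.2, 26.3, 17.2, 18.7 and 11.9 CPM (log2 fold change 1.15 ± 0.26 (SE), adjusted p = 0.0037). Nos2, the inducible nitric oxide synthase, and Saa1, a serum amyloid, were called as higher in TDD, with overlapping groups and TDD mouse 4 far above the rest. Nos2 had 5.72, 8.11, 21.6, 76.1 and 2.26 CPM in TDD against 2.54, 3.62, 3.24, 5.33 and 5.77 CPM in CD+ABX, and Saa1 had 0.251, 0.138, 0.0621, 3.77 and 0.085 CPM against 0.0221, 0.168, 0, 0.0584 and 0.0754 CPM. Of 19 tested epithelial antimicrobial and microbe-induced genes, 5 were higher in TDD and 2, Duox2 and Duoxa2, in CD+ABX, with a median of 0.49. Among all genes tested, 3.12% were called higher in TDD and 0.975% in CD+ABX. Without TDD mouse 4 the list had 3 calls higher in TDD and 2 in CD+ABX, and Saa1 was not called (log2 fold change 1.01).

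Genes of transport and metabolism were among the 12 highest ranked, and TDD mouse 1 was not low for them. Fbp1, a gluconeogenic phosphatase (chr13:62864753-62888282), lay at 108, 78.9, 59.7, 76.3 and 93.7 CPM in TDD and 12.4, 10.6, 12.02, 6.696 and 8.69 CPM in CD+ABX (log2 fold change 3.05 ± 0.38 (SE), adjusted p = 4.1e-05). Slc22a13b, a relative of the organic anion transporter gene Slc22a13, lay at 19.7, 13.8, 7.75, 10.4 and 16.5 CPM in TDD and 1.23, 1.27, 1.49, 1.09 and 1.45 CPM in CD+ABX (log2 fold change 3.38 ± 0.38 (SE), adjusted p = 1.8e-05). Slc22a13 itself (chr9:119192974-119209098) lay at 6.099, 3.92, 2.51, 3.41 and 6.44 CPM and 0.353, 0.3597, 0.532, 0.487 and 0.754 CPM (log2 fold change 3.16 ± 0.48 (SE), adjusted p = 0.00018). The lowest TDD mouse was at least 3 times the highest CD+ABX mouse for all of these genes, and TDD mouse 3 was lowest of its group for each. Slc28a2b, of the nucleoside transporter family, had 1.698 to 3.48 CPM in TDD and 0.192 to 0.434 CPM in CD+ABX (log2 fold change 3.27 ± 0.59 (SE)). These pairs of copies may share reads.

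Sugar and fat handling differed in named genes rather than across whole lists. Of 20 enterocyte markers, Sis, Slc2a2 and Slc2a5 were higher in TDD and Anpep in CD+ABX, with a median of -0.07. Among all genes tested, 4.10% were called in either direction. Sis, the sucrase-isomaltase that splits sucrose, lay at 8549, 7270.2, 7619, 7984 and 7842 CPM in TDD and 3551, 3853, 3221, 1736 and 4445 CPM in CD+ABX (log2 fold change 1.22 ± 0.20 (SE), adjusted p = 0.00035). Slc2a5, the fructose transporter, had 171 to 234 CPM in TDD and 50.1 to 132 CPM in CD+ABX (log2 fold change 1.18 ± 0.18 (SE)), and Slc2a2, the basolateral glucose transporter, had 529 to 667 CPM and 75.9 to 374 CPM (log2 fold change 1.22 ± 0.28 (SE)). CD+ABX mouse 4 was the lowest for all of these genes, and without it Slc2a2 fell under the fold limit (log2 fold change 0.96). Anpep, an aminopeptidase of the brush border, had 3334 to 5259.6 CPM in TDD and 7039 to 11448 CPM in CD+ABX (log2 fold change -1.04 ± 0.18 (SE)), a fold close to the limit, and it lost its call without TDD mouse 1, TDD mouse 5 or CD+ABX mouse 5. Apoa4, an apolipoprotein of chylomicrons, lay at 9747, 8459, 5916, 7411 and 10687 CPM in TDD and 2144, 2358, 1909.5, 1815 and 2737 CPM in CD+ABX (log2 fold change 1.95 ± 0.35 (SE), adjusted p = 0.00068), and Apoc2, which activates lipoprotein lipase, was higher as well (log2 fold change 1.45 ± 0.35 (SE)). On the same list of 27 fat absorption genes, Fabp2, a cytosolic fatty acid carrier, and Scd2, a fatty acid desaturase, were higher in CD+ABX (log2 fold changes -1.12 ± 0.18 (SE) and -1.65 ± 0.26 (SE)), and Fabp2 fell under the fold limit without CD+ABX mouse 5 (log2 fold change -0.95). None of 25 cholesterol synthesis genes was called by edgeR, DESeq2 or limma-voom. Of them, 7 had an unadjusted p under 0.05 (edgeR), as did 5995 of all 16306 genes tested. Ebp, the member with the smallest p, had 44.02 to 49.5 CPM in TDD and 54.4 to 68.6 CPM in CD+ABX.

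Xenobiotic enzymes split by gene. Of 38 tested, 4 were higher in TDD and 2 in CD+ABX, with a median of 0.10, where 4.10% of all genes tested were called. Cyp3a11, a broad drug- and steroid-metabolising cytochrome P450, lay at 248, 209, 188, 200.1 and 239 CPM in TDD and 37.4, 89.6, 35.7, 61.5 and 57.5 CPM in CD+ABX (log2 fold change 1.95 ± 0.36 (SE), adjusted p = 0.00093). Cyp2c66 had 11.5 to 21.6 CPM in TDD and 3.11 to 4.99 CPM in CD+ABX (log2 fold change 2.08 ± 0.40 (SE)). Cyp2a12 was called at low levels (0.425 to 0.963 CPM in TDD, 0 to 0.336 CPM in CD+ABX) and lost its call without TDD mouse 4 or without CD+ABX mouse 3, 4 or 5. Cyp3a25 was the fourth (log2 fold change 1.095 ± 0.22 (SE)). The carboxylesterase genes Ces2b and Ces1f were higher in CD+ABX (log2 fold changes -1.16 ± 0.29 (SE) and -1.14 ± 0.37 (SE)).

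Clock genes differed in both directions. The clock runs on Arntl, which drives the period genes and the output factors Dbp, Tef and Hlf, while Nfil3 opposes those outputs. Of 24 tested clock genes, Dbp, Hlf, Tef, Per3, Ciart and Bhlhe41 were higher in TDD and Arntl and Nfil3 in CD+ABX, with a median of 0.40. The shares over all genes tested were 3.12% called higher in TDD and 0.975% called higher in CD+ABX. Arntl (chr7:113207465-113314126) lay at 12.3, 18.8, 16.7, 15.9 and 13.99 CPM in TDD and 29.7, 34.8, 30.3, 69.6 and 26.5 CPM in CD+ABX (log2 fold change -1.30 ± 0.25 (SE), adjusted p = 0.0012). Dbp (chr7:45705088-45710203) lay at 176, 81.2, 89.4, 104 and 147 CPM in TDD and 48.6, 31.3, 33.8, 3.99 and 63.9 CPM in CD+ABX (log2 fold change 1.72 ± 0.46 (SE), adjusted p = 0.01). CD+ABX mouse 4 stood apart from its group for both, with the highest Arntl and the lowest Dbp, and it also had 19.1 CPM of Nfil3 against 3.39 to 5.68 CPM in the other CD+ABX mice. Without this mouse the list had 4 calls, all higher in TDD, and Arntl and Nfil3 were no longer called, with log2 fold changes of -0.98 and -0.67. The other 4 CD+ABX mice were still above every TDD mouse for Arntl. Ciart, a repressor of the clock, lay at 10.8, 3.07, 2.96, 5.67 and 8.89 CPM in TDD and 1.301, 1.58, 1.003, 0.292 and 3.998 CPM in CD+ABX (log2 fold change 1.94 ± 0.48 (SE), adjusted p = 0.0064), with CD+ABX mouse 5 above TDD mice 2 and 3. Per1, under the fold limit, and Per2 were not called, with log2 fold changes of 0.88 ± 0.30 (SE) and 0.42 ± 0.21 (SE) and adjusted p of 0.036 and 0.16. The hour at which each mouse was taken is not given in the sources used here, so hour and treatment cannot be told apart for these genes.

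Promoters of clock genes are shown for the E-box CACGTG, the site that the Arntl protein and its partner Clock are known to bind, which reads the same on both strands. Of 19 clock genes with a RefSeq promoter, 5 held it (26.3%), as did 3 of the 8 called (37.5%), against 10.8% of the 12115 tested genes that had one. Capitals mark the E-boxes in the pair of promoters with higher levels in TDD.
Ciart, chr3:95882179-95882478, minus strand: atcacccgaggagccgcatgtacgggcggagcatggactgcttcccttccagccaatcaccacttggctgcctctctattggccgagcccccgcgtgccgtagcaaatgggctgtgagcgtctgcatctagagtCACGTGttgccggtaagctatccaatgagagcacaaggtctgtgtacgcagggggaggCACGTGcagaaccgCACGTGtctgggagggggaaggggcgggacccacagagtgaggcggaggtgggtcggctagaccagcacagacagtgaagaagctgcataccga
Bhlhe41, chr6:145865371-145865670, minus strand: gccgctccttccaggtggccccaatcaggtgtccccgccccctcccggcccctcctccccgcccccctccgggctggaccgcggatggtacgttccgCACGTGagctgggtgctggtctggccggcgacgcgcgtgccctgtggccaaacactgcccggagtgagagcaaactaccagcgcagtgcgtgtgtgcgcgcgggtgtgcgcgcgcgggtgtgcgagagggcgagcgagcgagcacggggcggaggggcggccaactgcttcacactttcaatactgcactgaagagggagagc
Ciart carried 3 copies and Bhlhe41 carried 1 in these 300 bases. The same limit on reading a match holds here.

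Among glucocorticoid-responsive genes, 3 of 23 were higher in TDD and none in CD+ABX, with a median of 0.15. By the same limits, 3.12% of all genes tested were higher in TDD and 0.975% in CD+ABX. Fkbp5, a chaperone of the glucocorticoid receptor and a common readout of its activity, lay within a narrow band in TDD, at 194, 187, 190.3, 197 and 201 CPM, and at 71.4, 144, 81.6, 73.6 and 74.6 CPM in CD+ABX (log2 fold change 1.12 ± 0.23 (SE), adjusted p = 0.002). CD+ABX mouse 2 came nearest to the TDD mice. Hif3a lay at 4.59, 4.29, 5.53, 4.71 and 5.08 CPM in TDD and 1.37, 2.78, 1.31, 1.25 and 1.11 CPM in CD+ABX (log2 fold change 1.63 ± 0.24 (SE), adjusted p = 0.00013), with the same CD+ABX mouse 2 highest. Pdk4, a kinase that holds back glucose oxidation in fasting, lay at 64.8, 51.0001, 60.1, 34.05 and 33.5 CPM in TDD and 7.56, 27.8, 7.29, 13.7 and 10.7 CPM in CD+ABX (log2 fold change 1.86 ± 0.38 (SE), adjusted p = 0.0016), and CD+ABX mouse 2 was again nearest. Without TDD mouse 1 this list had 5 calls, all higher in TDD, and without CD+ABX mouse 1 it had 4 higher in TDD and 2 higher in CD+ABX. Pdk4 and Fbp1 were the only calls among 22 fasting and fatty acid oxidation genes, whose median was 0.05.

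B cell genes had some of the largest fold changes toward TDD, and they divided the TDD mice themselves. Of 24 B cell markers, 22 were higher in TDD and none in CD+ABX, with a median of 3.13, but only 3 did not overlap. In that direction, 3.12% of all genes tested were called and 8.29% did not overlap. Ms4a1, which encodes CD20, lay at 0.226, 17.03, 10.8, 22.7 and 19.3 CPM in TDD and 0.309, 0.743, 0.246, 0.3504 and 0.566 CPM in CD+ABX (log2 fold change 4.98 ± 1.34 (SE), adjusted p = 0.01). TDD mouse 1 was below every CD+ABX mouse, and TDD mice 2 to 5 were above all of them. Cr2, the complement receptor of B cells and follicular dendritic cells, lay at 0.176, 16.1, 9.22, 23.4 and 17.03 CPM in TDD and 0.0882, 0.432, 0.307, 0.389 and 0.264 CPM in CD+ABX (log2 fold change 5.46 ± 1.56 (SE), adjusted p = 0.015), with TDD mouse 1 inside the CD+ABX range and the others above it. Among the ranked genes, Tnfrsf13c, the receptor of the B cell survival factor BAFF, had 0.477, 7.79, 4.93, 10.8 and 8.84 CPM in TDD and 0.397, 0.288, 0.328, 0.3698 and 0.434 CPM in CD+ABX (log2 fold change 4.16 ± 1.05 (SE), adjusted p = 0.0071). It counted as free of overlap only because TDD mouse 1 lay just above CD+ABX mouse 5. Fcrl1 and Cd79b, also B cell surface genes, passed in the same narrow way, with 0.577 and 1.81 CPM in TDD mouse 1 against 0.528 and 1.66 CPM in CD+ABX mouse 5. With limma-voom the list had 10 calls, and with its own summed level as the covariate it had none higher in TDD, as that covariate is built from these genes.

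Genes that organise lymphoid tissue followed the same mice. Of 22 tested, 11 were higher in TDD and none in CD+ABX, with a median of 1.01. Calls made up 3.12% of all genes tested with TDD higher and 0.975% with CD+ABX higher. Ccl19, a chemokine of T cell zones, lay at 0, 2.25, 1.26, 3.44 and 1.99 CPM in TDD and 0.0662, 0, 0.0205, 0.0195 and 0.0566 CPM in CD+ABX, where the levels rest on few counts. Glycam1, made by the high endothelial venules through which lymphocytes enter, lay at 0, 1.86, 0.518, 2.15 and 1.598 CPM in TDD and 0.0221, 0, 0, 0 and 0 CPM in CD+ABX, where only mouse 1 had a count above 0. Ccl20, which draws cells to the dome over a follicle, lay at 0.326, 2.22, 1.39, 2.697 and 2.45 CPM in TDD and 0.154, 0.192, 0.348, 0.156 and 0.189 CPM in CD+ABX (log2 fold change 3.11 ± 0.72 (SE), adjusted p = 0.0042). TDD mouse 1 lay within the CD+ABX range for all of them. Clu, a secreted chaperone that was placed on this list, was an exception, at 28.6, 73.2, 54.4, 97.7 and 86.2 CPM in TDD and 10.1, 10.6, 12.02, 9.28 and 8.204 CPM in CD+ABX (log2 fold change 2.76 ± 0.53 (SE), adjusted p = 0.0011), with TDD mouse 1 lowest yet well above every CD+ABX mouse. Chemokines and their receptors had 7 calls higher in TDD and 1, Cxcl10, higher in CD+ABX, of 44 tested, with a median of 0.51, the others being Ccl19, Cxcr5, Ccr6, Ccl20, Cxcl13, Ccr7 and Cxcr4. The sources used here name no step that removed lymphoid patches from the tissue used for RNA, and the part that such patches had in these differences was not tested. With the B cell marker level as a covariate, the organiser list kept 1 call higher in TDD and the chemokine list kept none.

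**Figure D3:**
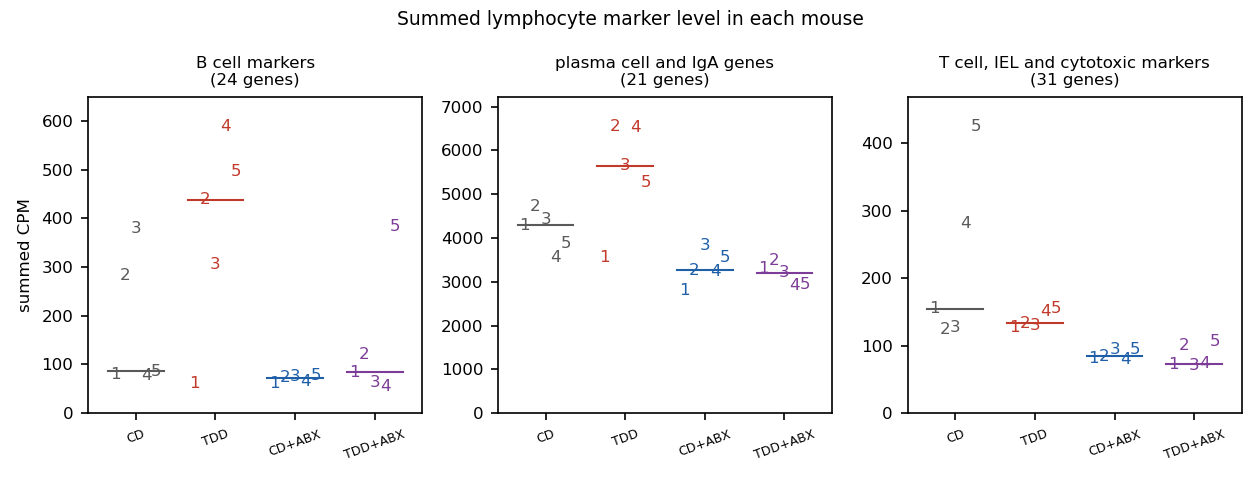
Summed CPM (vertical axes, from 0) of 24 B cell markers, 21 plasma cell and IgA genes and 31 T cell, intraepithelial lymphocyte (IEL) and cytotoxic markers in each of the 20 mice, drawn as mouse numbers with a line at the group median. TDD mouse 1 sits with the CD+ABX mice at 60.3 CPM for B cell markers, whereas for the T cell list all 5 TDD mice sit above all CD+ABX mice.

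Plasma cell and antibody genes that were called were all higher in TDD. Of 21 tested, 11 were higher in TDD and none in CD+ABX, and the median was 1.21. With TDD higher, 8 did not overlap. Over all genes tested, 3.12% were called and 8.29% did not overlap in that direction. Jchain, which joins IgA into dimers, lay at 289.9, 631, 501, 502 and 476 CPM in TDD and 154, 232, 224, 174 and 256 CPM in CD+ABX (log2 fold change 1.21 ± 0.19 (SE), adjusted p = 0.00029). TDD mouse 1 was lowest of its group and still above every CD+ABX mouse. Igha, the IgA constant region, had 1258, 2695, 2385, 2374 and 2152 CPM in TDD and 706, 961, 1183, 758 and 1301 CPM in CD+ABX (log2 fold change 1.15 ± 0.20 (SE), adjusted p = 0.00053), and TDD mouse 1 fell below CD+ABX mouse 5. The IgG constant regions showed larger folds at lower levels. Ighg2c lay at 1.93, 4.01, 4.74, 6.03 and 5.796 CPM in TDD and 0.287, 0.719, 0.512, 0.136 and 0.566 CPM in CD+ABX (log2 fold change 3.34 ± 0.45 (SE), adjusted p = 6.2e-05), whereas Ighg3 lay at 0.753, 13.8, 4.66, 12.3 and 8.74 CPM and 0.485, 0.2398, 0.184, 0.331 and 0.547 CPM (log2 fold change 4.48 ± 0.86 (SE), adjusted p = 0.0011). Of the variable segments, 18 of 92 heavy chain, 25 of 89 kappa and 1 of 3 lambda segments were higher in TDD and none in CD+ABX, although reads of such similar segments may be split with error. Summed over segments, TDD mouse 1 lay inside the CD+ABX range, with 231 CPM of heavy chain segments against 214 to 413 CPM and 278 CPM of kappa segments against 234 to 369 CPM. With the B cell marker level as a covariate, 5 of the plasma cell list were still called higher in TDD.

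T cell genes that were called were all higher in TDD. Of 31 tested T cell, IEL and cytotoxic markers, 9 were higher in TDD and none in CD+ABX, and the median was 0.74. With TDD higher, 17 did not overlap. Over all genes tested, 3.12% were called and 8.29% did not overlap with TDD higher. Against CD, the list median was below 0 in both groups, at -0.54 in TDD and -1.40 in CD+ABX. Against CD, 4 and 21 of the list were called, where 1.84% and 2.30% of all genes were. Cd3e, a chain of the T cell receptor complex, lay at 4.02, 5.27, 5.41, 6.496 and 7.105 CPM in TDD and 2.62, 2.76, 2.85, 2.51 and 3.32 CPM in CD+ABX (log2 fold change 1.01 ± 0.27 (SE), adjusted p = 0.011). Lck, the kinase next to that receptor, lay at 4.67, 8.39, 6.13, 10.1 and 10.4 CPM and 2.65, 3.65, 4.095, 2.86 and 4.13 CPM (log2 fold change 1.19 ± 0.29 (SE), adjusted p = 0.0061). Both genes were free of overlap, with TDD mouse 1 lowest in its group. Cd5, in contrast, was at 0.402 CPM in TDD mouse 1, inside the CD+ABX range of 0.246 to 0.453 CPM, and at 1.66 to 2.34 CPM in the other TDD mice. Cd8b1 was called in the comparison of all 10 mice only narrowly (adjusted p = 0.04, edgeR) and lost its call without any 1 of TDD mice 2 to 5 or any 1 of the CD+ABX mice. With the B cell marker level as a covariate, 1 gene of the list was called.

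Regulatory T cell genes had 6 calls higher in TDD and 1, Il1rl1, higher in CD+ABX, of 17 tested, with a median of 0.59. All genes tested had 3.12% called higher in TDD and 0.975% called higher in CD+ABX. Foxp3, the transcription factor of these cells, lay at 0.151, 0.779, 0.684, 1.05 and 0.816 CPM in TDD and 0.287, 0.168, 0.307, 0.253 and 0.207 CPM in CD+ABX (log2 fold change 1.496 ± 0.45 (SE), adjusted p = 0.019). TDD mouse 1 was the lowest of all 10 mice and the other 4 TDD mice were above every CD+ABX mouse. Ctla4, an inhibitory receptor, lay at 0.678, 1.21, 0.476, 0.991 and 1.105 CPM and 0.243, 0.216, 0.4095, 0.292 and 0.321 CPM (log2 fold change 1.58 ± 0.38 (SE), adjusted p = 0.0049), with no overlap. Icos, a costimulatory receptor, had 0.376, 1.72, 1.43, 2.04 and 1.87 CPM in TDD and 0.463, 0.384, 0.4505, 0.389 and 0.585 CPM in CD+ABX (log2 fold change 1.70 ± 0.36 (SE), adjusted p = 0.0023), with TDD mouse 1 below every CD+ABX mouse. The call of Foxp3 was lost without TDD mouse 4, and the list then had 3 calls higher in TDD. With the B cell marker level as a covariate, the log2 fold changes were -0.12 for Foxp3, 0.58 for Icos and 1.08 for Ctla4, and all lost their calls. Gata3 did not pass the test (1.13 to 1.899 CPM in TDD, 0.735 to 1.35 CPM in CD+ABX, log2 fold change 0.43 ± 0.20 (SE), adjusted p = 0.13). Type 17 immunity genes had 2 calls of 15, Ccl20 and Ccr6, both higher in TDD, with a median of 0.21. Neither kept its call with that covariate, at log2 fold changes of 0.64 and 0.39.

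Among genes of Trp use, 4 of 20 tested were called, where 4.10% of all genes tested were. Of these 20 Trp, kynurenine and serotonin genes, Haao, Inmt and Il4i1 were higher in TDD and Maob in CD+ABX, with a median of 0.23. The limit on adjusted p alone was met by 8 genes higher in TDD and 3 higher in CD+ABX, where 25.4% of all genes met it. Ido1, the first enzyme of the kynurenine route in gut, lay at 6.48, 6.69, 2.61, 4.82 and 3.62 CPM in TDD and 7.06, 9.21, 6.53, 14.6 and 11.01 CPM in CD+ABX (log2 fold change -1.0032 ± 0.37 (SE), adjusted p = 0.051), so it missed the threshold with all mice and passed it under 11 of the 31 alternatives. Tph1, which starts serotonin synthesis, lay at 7.002, 14.03, 11.5, 13.02 and 15.3 CPM in TDD and 8.42, 9.21, 5.43, 7.09 and 5.71 CPM in CD+ABX (log2 fold change 0.77 ± 0.25 (SE), adjusted p = 0.03), under the fold limit. Maob, an amine oxidase, lay at 126, 175, 206, 169 and 138 CPM in TDD and 364, 353, 366, 277 and 415 CPM in CD+ABX (log2 fold change -1.12 ± 0.16 (SE), adjusted p = 0.00011), with no overlap. TDD mouse 1 lay inside the CD+ABX range for Haao and Il4i1, as for B cell markers, with 0.276 CPM of Haao against 2.09 to 3.25 CPM in the other TDD mice, whereas Inmt, an N-methyltransferase that acts on tryptamine, did not overlap at 0.456 to 1.58 CPM in TDD and 0.041 to 0.358 CPM in CD+ABX. Of 13 AhR genes, only Aldh3a1 was called, at low levels (0.238 to 0.642 CPM in TDD, 0 to 0.216 CPM in CD+ABX). Cyp1a1, the best known AhR target, was near 0 in both groups (0.0251 to 0.248 CPM in TDD, 0 to 0.0779 CPM in CD+ABX, log2 fold change 1.48 ± 0.94 (SE), adjusted p = 0.27).

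Amino acid starvation genes had 2 calls of 31, in opposite directions, with a median of 0.02, where 4.10% of all genes tested were called. On adjusted p alone, 6 were higher in TDD and 4 in CD+ABX. The level summed over the list, which weighs high genes most, did not overlap. It was 1070 to 1187 CPM in TDD and 1222 to 1414 CPM in CD+ABX. Nupr1, a stress-induced nuclear protein gene, was higher in CD+ABX (11.8 to 18.2 CPM in TDD, 25.7 to 48.3 CPM in CD+ABX, log2 fold change -1.12 ± 0.18 (SE), adjusted p = 0.00023) but fell just under the fold limit without CD+ABX mouse 4 (log2 fold change -0.97), and Slc7a11, the cystine transporter gene, was higher in TDD (log2 fold change 1.19 ± 0.36 (SE)) but lost its call without TDD mouse 4 (log2 fold change 1.06). Chac1, which breaks down glutathione and is a target of ATF4, lay at 0.351, 0.275, 0.518, 0.248 and 0.425 CPM in TDD and 0.617, 0.743, 0.696, 0.779 and 1.87 CPM in CD+ABX, without overlap but under the threshold (log2 fold change -1.36 ± 0.57 (SE), adjusted p = 0.092). None of 21 amino acid and peptide transporters was called by edgeR, DESeq2 or limma-voom. Of them, 8 had an unadjusted p under 0.05 (edgeR), as did 5995 of all 16306 genes tested. Slc6a19, the main carrier of neutral amino acids including Trp, had 740.4, 629, 778, 885 and 656 CPM in TDD and 861, 1133, 949.7, 856 and 1628 CPM in CD+ABX (log2 fold change -0.56 ± 0.20 (SE), adjusted p = 0.049), and Slc6a20b, with the smallest p of the list, had 13.03 to 20.1 CPM and 23.3 to 28.97 CPM (log2 fold change -0.72 ± 0.12 (SE), adjusted p = 0.00029).

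Lists that describe the makeup of the tissue gave few calls. As 4.10% of all genes tested were called, lists this short would hold few calls in any case. None of the 21 enteroendocrine, 24 crypt and proliferation, 14 smooth muscle, 15 neuron and glia, 19 collagen and 13 mitochondrially encoded genes was called by edgeR, DESeq2 or limma-voom. Of them, 7, 9, 1, 1, 10 and 2 had an unadjusted p under 0.05 (edgeR), where 5995 of all 16306 genes tested did. Their medians lay between -0.34 and 0.22. Without CD+ABX mouse 5, 1 collagen gene was called, higher in CD+ABX. The members with the smallest p were Sst, Birc5, Ckb, Chat, Col4a1 and mt-Nd6, with log2 fold changes of 0.31, -0.45, -0.56, -0.72, -0.60 and 0.46. Goblet cells had 1 call of 16, the secreted protein gene Clca1 (526 to 913 CPM in TDD, 1054 to 2026 CPM in CD+ABX), and the call was lost without TDD mouse 3 or 5 or without CD+ABX mouse 4 or 5. Macrophage and dendritic cell markers had 1 of 24, the scavenger receptor gene Cd163 (log2 fold change 1.16 ± 0.21 (SE)), lost without CD+ABX mouse 5, and 2 without TDD mouse 1. Mast cell and granulocyte markers had 1 of 8, Siglecf, given above with the tuft cell genes, and 2 without CD+ABX mouse 1. The list of pancreas, adipocyte and red cell markers had 2 of 19, the haemoglobin genes Hbb-bs and Hbb-bt, both higher in CD+ABX, and both calls were lost without TDD mouse 2 or 5 or without CD+ABX mouse 1, 3 or 5, and 1 of them without TDD mouse 3 or 4. Immediate early genes had 1 of 17, Egr3, for which TDD mouse 1 lay inside the CD+ABX range (0.753 CPM in TDD mouse 1, 3.54 to 4.73 CPM in the other TDD mice, 0.509 to 1.27 CPM in CD+ABX). Outside all lists, Acta1, a muscle actin gene, had 17.4, 12.4, 21.997, 49.9 and 9.57 CPM in TDD and 1.26, 1.18, 2.11, 1.401 and 1.55 CPM in CD+ABX (log2 fold change 3.88 ± 0.70 (SE), adjusted p = 0.0007), while the summed smooth muscle markers were at 1249 to 3246 CPM in TDD and 1879 to 3483 CPM in CD+ABX. Cpxm1, a carboxypeptidase-like gene, had 0.627 to 3.66 CPM in TDD and 0.1697 to 0.432 CPM in CD+ABX (log2 fold change 3.04 ± 0.55 (SE), adjusted p = 0.00075), with TDD mouse 1 lowest of its group.

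**Figure D4:**
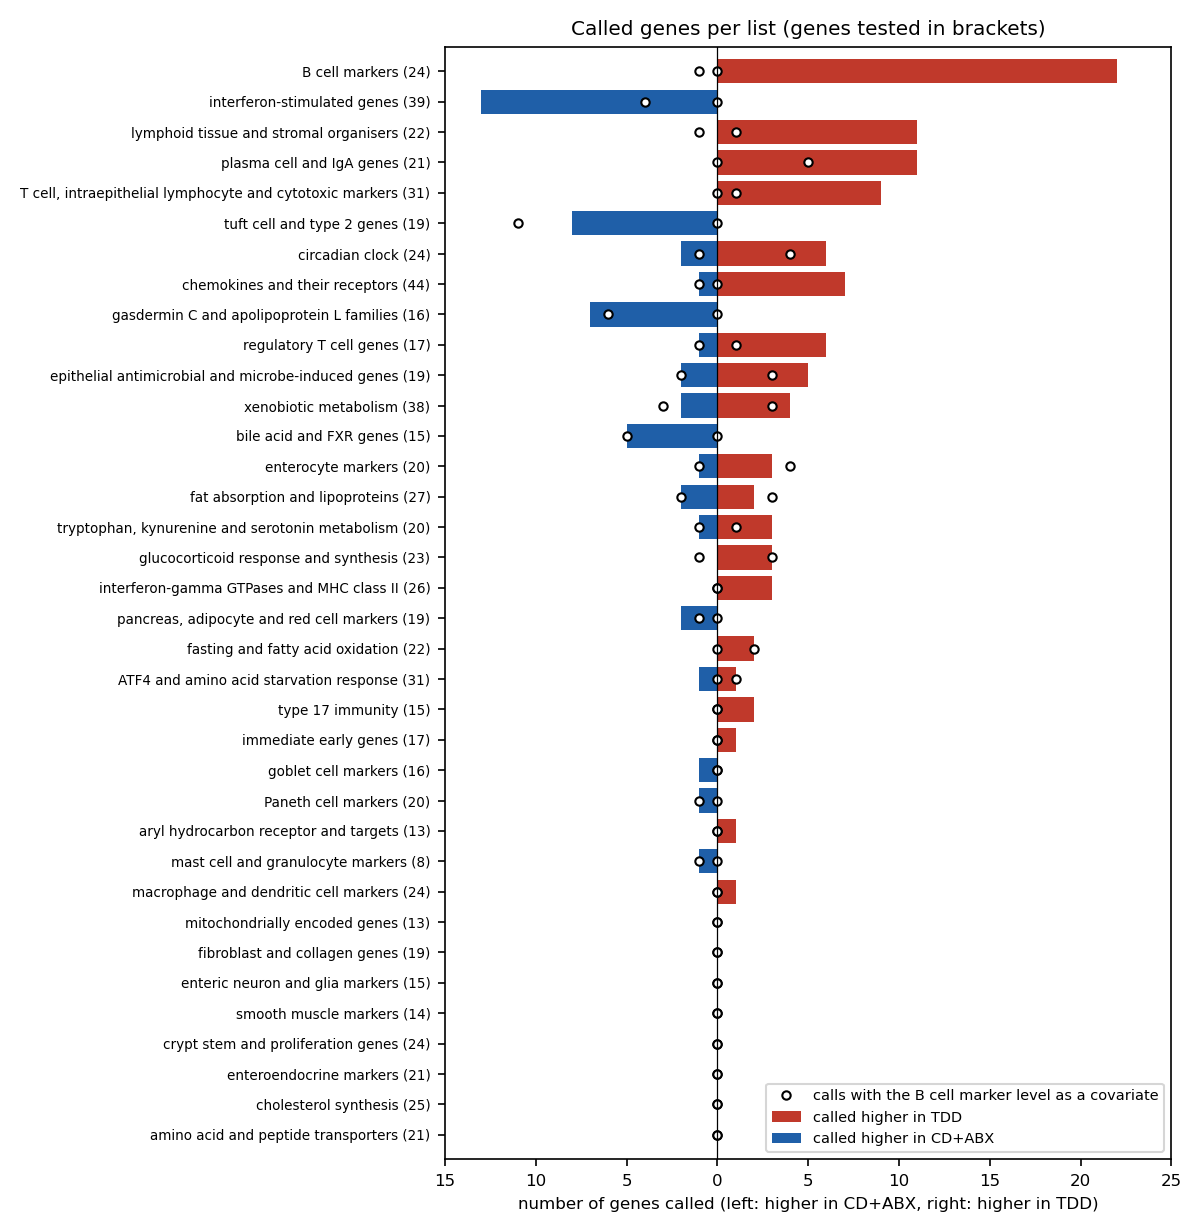
Number of genes called in each of 36 lists (horizontal axis; red to the right for higher in TDD, blue to the left for higher in CD+ABX), with the number of genes tested in brackets. Open circles give the calls with the B cell marker level as a covariate, under which the B cell list falls from 22 to 0 higher in TDD while the tuft cell list rises from 8 to 11 higher in CD+ABX.

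The CD mice, which had neither treatment, give a level to set beside both groups. The comparisons with CD share those 5 mice, so their values are set side by side only. Against CD, 300 genes differed in TDD (1.84%) and 375 in CD+ABX (2.30%) by the same test and limits. Gsdmc4 was lower in TDD than in CD (log2 fold change -4.19, adjusted p = 0.00012, edgeR) and close to CD in CD+ABX (0.41, adjusted p = 0.67). Dnase1 (log2 fold change -2.41 in TDD and -0.02 in CD+ABX), Alppl2 (-2.63 and 0.30), Oas2 (-2.77 and -0.80) and Arntl (-1.63 and -0.33) had the same form, with the larger departure from CD in TDD. Fbp1 had the opposite form, at -0.17 in TDD (adjusted p = 0.8, edgeR) and -3.22 in CD+ABX (adjusted p = 7.6e-05). Slc22a13b (0.44 in TDD and -2.94 in CD+ABX), Sis (0.20 and -1.03), Apoa4 (0.34 and -1.61) and Slc10a2 (1.32 and 4.07) likewise departed more in CD+ABX. For other genes CD lay between the groups. Fam151a was lower than CD in TDD (-1.66, adjusted p = 0.016, edgeR) and higher in CD+ABX (1.85, adjusted p = 0.0093), and Mptx1 (-1.42 and 1.34), Kcnj13 (-1.20 and 1.48) and ccdc198 (-1.45 and 1.02) did the same. Reg3b had 1.88 in TDD (adjusted p = 0.032, edgeR) and -1.16 in CD+ABX (adjusted p = 0.19). Fkbp5 was above CD in both groups (2.67 and 1.55). Dbp was above CD in TDD (3.13) and had 1.42 in CD+ABX (adjusted p = 0.053, edgeR). For tuft cell genes, Trpm5 had -0.44 in TDD (adjusted p = 0.12, edgeR) and 0.86 in CD+ABX (adjusted p = 0.0051).

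**Figure D5:**
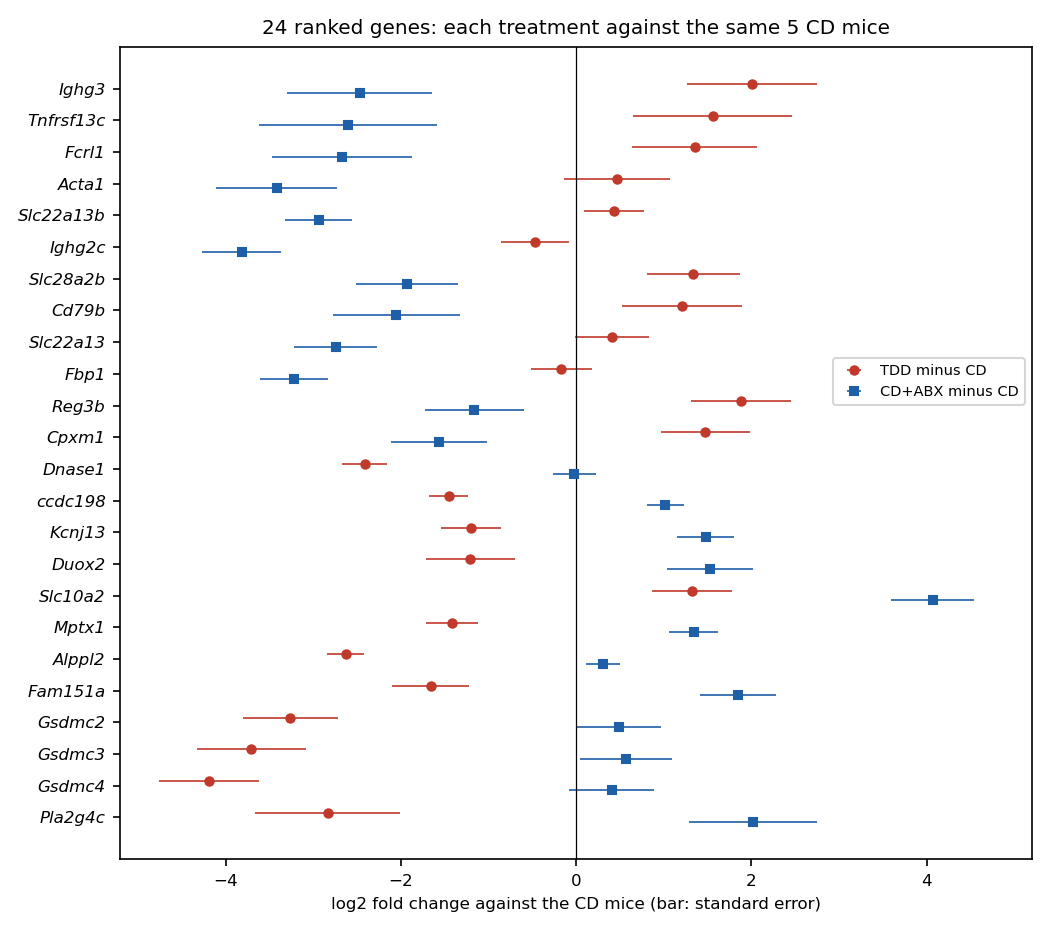
Log2 fold change against the 5 CD mice (horizontal axis, bars for the standard error) of the 12 highest and 12 lowest ranked genes, red circles for TDD and blue squares for CD+ABX. The gasdermin genes, Dnase1 and Alppl2 leave 0 mainly in TDD, and Fbp1, Slc22a13b, Ighg2c and Slc10a2 mainly in CD+ABX.

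On the log2(CPM + 0.5) scale, the group mean of CD was nearer to that of TDD than to that of CD+ABX for 280 of the 509 genes higher in TDD (55.0%) and 80 of the 159 higher in CD+ABX (50.3%), against 47.2% of all genes tested. The TDD+ABX mice, which carried both treatments, were nearer to TDD for 70 of the 509 (13.8%) and for 60 of the 159 (37.7%), against 37.2% of all genes. In the TDD+ABX mice Fbp1 stood at 13.5, 13.5, 16.9, 49.1 and 11.4 CPM and Reg3b at 96.6, 257, 472, 288 and 124 CPM. Gsdmc4 stood at 34.8, 9.15, 9.59, 10.4 and 32.4 CPM in TDD+ABX, above every TDD mouse, and Arntl at 19.9, 15.3, 25.7, 15.9 and 11.97 CPM.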

How the data were processed

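Poly-A RNA from 1 piece of ileum per mouse was sequenced. Per the labels and methods, the authors quantified reads with kallisto 0.44.0 against GRCm38 transcripts and deposited estimated counts, per transcript with TPM for each mouse and summed per gene in 1 table of 35204 gene symbols. The gene table's estimated counts are whole numbers and were used as deposited. Groups came from GEO's labels. Levels are CPM with TMM scaling. A gene was tested if at least 1 of 20 mice reached 0.5 CPM (16306 genes). All 4 groups were fitted in 1 quasi-likelihood model in edgeR 4.0.16 under R 4.3.3, and a call needed an adjusted p (Benjamini-Hochberg) under 0.05 together with a fold of at least 2. Standard errors are the log2 fold change divided by the square root of the F statistic. The fit was tested on simulated data. Among 12663 genes with a mean count of at least 100, the deposited gene count is 2 times what the transcript files add up to for 150. No named gene is among these 150, but named genes with lower counts were not compared. The deposited TPM, summed per gene over the 111362 of 113193 transcripts found in GENCODE M21, served 1 alternative, and GENCODE M21 gave coordinates. DESeq2 1.42.0 and limma-voom were the other alternatives.

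Total estimated counts were 37664356 to 58662617 in the 10 mice compared. Nothing in the sources used here pairs TDD with CD+ABX mice, and p-values measure the spread between mice of 1 experiment. Named genes were the 12 highest and 12 lowest called genes whose groups do not overlap and whose mean is at least 1 CPM, up to 4 called genes per list or, where none was called, the gene with the smallest p, and 12 genes always given. Of the genes this rule names, 2 are not reported here. Immunoglobulin variable segments and predicted genes were left out of that ranking. Further members of a list were named after their values were seen. The groups and gene lists were chosen with earlier results of these data known.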

Additional observations from a re-analysis of the deposited data

Results flagged for a closer look

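In 212 sets of 5 mice, the TDD or the CD+ABX values of 106 named genes on the log2(CPM + 0.5) scale, 29 had a mouse whose gap to its nearest neighbour exceeded Dixon's limit of 0.71 of the group's range, where chance gives about 5% of sets, and genes that move together are not separate sets. TDD mouse 1 was the mouse apart in 14, always below the others of its group: 0.276 CPM for Ccr6, 0.402 for Cd5, 0.176 for Cr2, 0.151 for Cxcr5, 0.753 for Egr3, 0.0251 for Fcmr, 1.41 for H2-DMb2, 0.803 for H2-Oa, 1.13 for H2-Ob, 0.276 for Haao, 0.376 for Icos, 2.81 for Ighg2b, 0.226 for Ms4a1 and 0.0502 for Pax5. All of these genes were called higher in TDD, and Cr2, Cxcr5, Fcmr, H2-DMb2, Ms4a1 and Pax5 are on the B cell list. TDD mouse 4 was apart for Saa1, at 3.77 CPM, and for the cell division gene Birc5, at 30.1 CPM, and TDD mouse 3 was lowest for Slc28a2b, at 1.698 CPM.

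CD+ABX mouse 4 was apart for 6 genes, of which 5 are clock genes. It was highest for Arntl at 69.6 CPM and for Nfil3 at 19.1 CPM, and lowest for Dbp at 3.99 CPM, Hlf at 2.08 CPM and Bhlhe41 at 0.389 CPM, as well as for Slc2a2 at 75.9 CPM. The CD mice had 32.8 to 58.6 CPM of Arntl and 5.07 to 21.8 CPM of Dbp. CD+ABX mouse 2 was highest for the glucocorticoid-responsive genes Fkbp5 at 144 CPM and Hif3a at 2.78 CPM. The other sets were Ccl20 in CD+ABX mouse 3 at 0.348 CPM, Chac1 in CD+ABX mouse 5 at 1.87 CPM, Scd2 in CD+ABX mouse 1 at 112 CPM and Glycam1 in CD+ABX mouse 1 at 0.0221 CPM, the last from 1 count.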

How the results depend on the processing

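The count of genes differing between TDD and CD+ABX was 668. It ran from 567 without CD+ABX mouse 4 to 729 without TDD mouse 1 when single mice were omitted. DESeq2, limma-voom, both other scalings, both other filters, the pair of groups fitted alone and robust edgeR gave 580 to 773. Log2(TPM + 1) with limma gave 258, no fold limit gave 4134, and the B cell marker level as a covariate, chosen after seeing the data, gave 339, with 54.6% of calls higher in TDD against 76.2% without it. For genes differing between TDD and CD, the count was 300, with 222 to 370 on omitting single mice, 140 on log2(TPM + 1) and 2354 with no fold limit. For genes differing between CD+ABX and CD, it was 375, with 287 to 405 on omitting single mice, 131 on log2(TPM + 1) and 2083 with no fold limit. A pseudocount of 1 TPM shrinks folds of low genes by construction. For the other moves the cause was not tested.

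With the covariate, 10 of 106 named genes changed sign, to -0.83 for Cr2, -0.015 for Cxcr5, -0.98 for Cyp1a1, -0.98 for Fcmr, -0.12 for Foxp3, -0.19 for H2-DMb2, -0.095 for H2-Ob, -0.17 for Il4i1, -0.46 for Ms4a1 and -1.20 for Pax5, and 27 others lost their call. No named gene changed sign under any other setting. Same-numbered TDD and CD+ABX mice did not deviate together, with correlations of -0.30 to 0.04 over genes, and no TDD mouse correlated best with the CD+ABX mouse of its number. A fit with the replicate number as a block gave 627 calls between TDD and CD+ABX, 242 between TDD and CD and 307 between CD+ABX and CD, with 617 of the 627 among the 668.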

Other observations

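The genes next in the ranking that are on none of the 36 lists were read after the values were seen, 8 in each direction, all without overlap between the 5 TDD and the 5 CD+ABX mice. On the CD+ABX side they were Serpina1f, Plb1, Sfrp5, Mroh7, Fam83c, Mgat4c, Slc34a2 and Batf2. Plb1, a brush border phospholipase, lay at 455, 143, 602, 411 and 16.9 CPM in TDD, with mouse 5 far below the rest, and at 1065, 1732, 1064, 1356 and 2218 CPM in CD+ABX (log2 fold change -2.19 ± 0.61 (SE), adjusted p = 0.013, edgeR). Slc34a2, a phosphate transporter of the ileum, lay at 156, 145, 255, 295 and 78.99 CPM in TDD and 427, 564, 311, 934 and 669.9 CPM in CD+ABX (log2 fold change -1.64 ± 0.35 (SE), adjusted p = 0.0024), and the CD mice had 289.8 to 906 CPM. Batf2, an interferon-responsive transcription factor, lay at 6.902, 7.77, 6.01, 10.8 and 7.27 CPM in TDD and 21.3, 19.6, 24.6, 27.7 and 23.8 CPM in CD+ABX (log2 fold change -1.60 ± 0.17 (SE), adjusted p = 1.2e-05). Sfrp5, a secreted Wnt antagonist, lay at 0.904 to 1.58 CPM in TDD and 2.64 to 6.84 CPM in CD+ABX.

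On the TDD side they were Pbx4, Ubd, Nt5e, Acaa1b, Il21r, Zfp831, Hvcn1 and Mcoln3. Nt5e, the ectonucleotidase CD73 that makes adenosine outside cells, lay at 141, 103, 45.3, 103 and 96.1 CPM in TDD and 12.6, 14.4, 13.3, 32.1 and 17.5 CPM in CD+ABX (log2 fold change 2.44 ± 0.60 (SE), adjusted p = 0.0061), with 16.1 to 70.5 CPM in the CD mice. Acaa1b, a peroxisomal thiolase of fatty acid oxidation, lay at 22.3, 14.2, 9.42, 11.1 and 17.98 CPM in TDD and 3.55, 2.42, 3.501, 2.63 and 2.19 CPM in CD+ABX (log2 fold change 2.39 ± 0.35 (SE), adjusted p = 0.00014). Pbx4 lay at 12.1, 8.18, 8.04, 8.62 and 7.94 CPM in TDD and 1.65, 0.767, 1.597, 0.779 and 2.04 CPM in CD+ABX (log2 fold change 2.71 ± 0.39 (SE), adjusted p = 0.00011). Hvcn1, Il21r, Zfp831 and Ubd had their lowest TDD level in TDD mouse 1, as the B cell genes did, at 4.42, 2.13, 0.979 and 0.778 CPM, and the part of the lymphoid content in them was not tested.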
